A study of Rattus norvegicus with 4 samples.

Results

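Circular RNAs (circRNAs) classed as intergenic were described in rat sciatic nerve 24 h after a crush injury and after a sham operation. The members were all 732 circRNAs that the deposited files class as intergenic, of 4942 circRNAs listed (14.8%). The other 3731 exonic and 479 intronic circRNAs carry a host gene in the files. The class and the genome position chose the members, and no read count was used.

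A circRNA forms when the splicing machinery joins a downstream splice donor to an upstream splice acceptor, a step called back-splicing, so that the RNA closes on itself. Without free ends such RNAs resist exonucleases and can outlast the linear transcript of the same gene. Most known circRNAs consist of exons of protein-coding genes, and one that lies outside annotated genes can come, for example, from an unannotated transcript or from an exon beyond the annotated end of a gene. In peripheral nerve a crush is followed within a day by the breakdown of axons distal to the injury, by a change of Schwann cells to a repair state and by the entry of leukocytes.

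The crush libraries came from Sprague-Dawley rats at postnatal week 6 in which a stretch of 3 mm of sciatic nerve was squeezed 2 times with forceps, each time for 15 s and 3 s apart. That stretch was collected with 1 mm of adjoining nerve on either side. The sham libraries came from rats of the same strain and age whose nerve was exposed and left intact. Each group had 2 libraries of total RNA, and the labels do not say whether they came from separate animals or from pools, so the spread behind each p-value is that of the samples and may be technical.

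The measurement was the number of reads that cross a back-splice junction. Crush replicates 1 and 2 had 8250 and 9027 such reads over all circRNAs, and sham replicates 1 and 2 had 9018 and 8726. The lowest count above 0 was 2, and a listed 0 means that the circRNA was not reported in the library. The replicates of both groups differed by more than sampling noise (chi-square per degree of freedom of 2.81 for crush and 3.65 for sham). As a check of the tissue, circRNAs of host genes that mark cell types were summed. Of 10 leukocyte genes, 9 had a circRNA, with 76 and 63 reads in the crush libraries, against 0 and 0 in the sham libraries. Of 13 Schwann cell and myelin genes only 2 had one, with 0 and 0 reads in crushed nerve, against 0 and 6 in sham nerve, and the defining genes Prx, Mag, Drp2, Sox10, Erbb3, Egr2, Ncam1, Mal and Cnp were among those at 0. Of 9 skeletal muscle genes, 3 had one, with 0 and 2 reads in crushed nerve, against 3 and 7 in sham nerve. Of 6 perineurium and fibroblast genes, 1 had one, with 0 and 0 reads in crushed nerve, against 7 and 5 in sham nerve. The labelled tissue therefore could not be checked by myelin genes at the level of circRNAs. In bulk nerve, fewer cells of a type and less RNA per cell cannot be told apart.

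The crush and sham libraries overlapped in the share of junction reads that fell on intergenic circRNAs. Intergenic circRNAs held 1407 of the reads in crush replicate 1 (17.1%, 95% exact interval 16.2% to 17.9%) and 1621 in crush replicate 2 (18.0%, 17.2% to 18.8%). In the sham libraries they held 1606 reads (17.8%, 17.0% to 18.6%) and 1645 reads (18.9%, 18.0% to 19.7%). Crush replicate 2 lay between the sham libraries and crush replicate 1 below them, with a mean difference of -0.824 percentage points (exact permutation test, two-sided, p = 0.667; with 2 libraries against 2 the smallest p is 0.333). The intervals cover counting error only. One circRNA set the sign of that difference. Without circRNA.317, described below, the share was 16.8% and 17.6% in crushed nerve, against 15.9% and 16.2% in sham nerve, 1.18 percentage points higher after crush (exact permutation p = 0.333).

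The deposited files also scale the junction reads to the library, in SRPBM, a unit in which each read of a library has the same worth. On that scale intergenic circRNAs summed to 99.5 ± 3.59 SRPBM after crush and 123.2 ± 8.75 SRPBM after sham (SD, n = 2 each; exact permutation p = 0.333). The difference was -23.7 SRPBM with circRNA.317 and -7.28 SRPBM without it. All circRNAs together were also lower on this scale, at 598.1 and 539.8 SRPBM after crush, against 657.0 and 686.3 SRPBM after sham. Exonic circRNAs summed to 449.4 and 405.7 SRPBM after crush, against 491.4 and 522.7 SRPBM after sham. The 10 most abundant intergenic circRNAs of a library took 31.7% and 28.3% of its intergenic reads in crushed nerve, against 38.0% and 43.2% in sham nerve. The reads of the crushed nerve were thus spread over more members.

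More intergenic circRNAs were reported in crushed nerve. The numbers were 262 and 321 in the crush libraries, against 248 and 228 in the sham libraries, which do not overlap (exact permutation p = 0.333). They were 14.7% and 15.9% of the circRNAs of all classes reported in the crush libraries, against 14.6% and 13.3% in the sham libraries. Thinned to the depth of the shallowest library they were 262 and 291 in crushed nerve, against 233 and 213 in sham nerve. The excess consisted of members with few reads. Of members with at least 5 reads there were 64 and 77 in crushed nerve, against 71 and 68 in sham nerve, and 46.2% and 47.7% of those reported after crush had only 2 reads, against 39.5% and 39.9% after sham.

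Most members were seen once. Of the 732, 537 were reported in 1 library (73.4%), 108 in 2, 42 in 3 and 45 in all 4 (6.15%). Exonic circRNAs were close to this, with 70.7% in 1 library and 6.81% in all 4. In both crush libraries and no sham library there were 39 members (5.33%, against 4.51% of all circRNAs), and in both sham libraries and no crush library there were 25 (3.42%, against 3.56% of all circRNAs). The 45 members seen in every library carried 43.6% and 39.0% of the intergenic reads in crushed nerve, against 53.0% and 58.5% in sham nerve.

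Intergenic circRNAs lay on every chromosome and on both strands, 370 on minus and 362 on plus. They made up the largest part of the circRNAs on chromosome X among those with over 4 circRNAs, 38 of 134 (28.4%), followed by chromosome 15 with 38 of 161 (23.6%). The smallest part was on chromosome 19, with 10 of 115 (8.70%). On chromosome 10 they took 22.4% and 29.7% of the junction reads in crushed nerve, against 47.4% and 50% in sham nerve. The crush and sham libraries did not overlap there, and chromosome 10 holds circRNA.317.

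Few members touched a circRNA of a named gene. Of the 732, 610 (83.3%) neither overlapped nor shared an end with an exonic or intronic circRNA of the same strand. For these the nearest circRNA of a gene on the same strand, on either side, was at a median of 516046 bases. The quartiles were 137784.5 and 1451974 bases, and 209 were over 1000 kb away. On that strand 83 lay within 50000 bases. CircRNAs of genes on the opposite strand were not counted in these distances and can lie nearer. A further 49 overlapped such a circRNA without a common end, and 73 had the same start or the same end as one.

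The 73 that shared an end with a host circRNA all reached past what the files list for that gene. Each of them reached beyond the outermost circRNA of its host: 47 (64.4%) beyond the upstream side in the direction of transcription, by a median of 16672 bases, and 26 (35.6%) beyond the downstream side, by a median of 21225 bases. None lay wholly within the stretch that the host's own circRNAs cover. The class that chose the members may have fixed this in advance, since a circRNA within an annotated gene would carry that gene as host. The 47 that reached upstream summed to 235 and 196 reads in crushed nerve, against 233 and 214 in sham nerve. The 26 that reached downstream summed to 18 and 25 reads in crushed nerve, against 40 and 49 in sham nerve. The hosts were 55 genes or gene pairs.

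Back-splices of intergenic circRNAs also used ends in common with each other. Of the 732 members, 282 (38.5%) shared a start or an end with another intergenic circRNA, close to the 41.9% of exonic circRNAs that did so with an exonic one and above the 16.3% of intronic ones. They formed 57 pairs, 25 groups of 3, 10 of 4, 8 of 5, 1 of 6 and 1 of 7. The upstream end, where the splice acceptor lies, was shared by 191 members (26.1%) and the downstream end by 130 (17.8%). Members of such a group share their source and are not independent.

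The median span of intergenic circRNAs was larger than that of exonic ones in each library. The span is end minus start, includes any intron and is not the length of the RNA. Its median was 13712 bases over the 732 members, with a range of 145 to 199947, and 8809 bases over exonic circRNAs. Spans of 50000 bases or more made up 19.3% of intergenic and 6.35% of exonic circRNAs. Library by library the intergenic median exceeded the exonic one by 1264 and 998 bases after crush and by 8034 and 8764 bases after sham. The mean excess was 4765 bases, in the same direction in 4 of 4 libraries (exact permutation of the sign within libraries, two-sided, p = 0.125, the smallest that 4 libraries can give). Among circRNAs reported in at least 2 libraries the mean excess was 2679.8 bases and crush replicate 2 went the other way, with -1027 bases (exact permutation p = 0.25). Members that neither overlapped nor shared an end with a host circRNA were shorter, with a median of 9308.5 bases, than those that overlapped one (27012 bases) or shared an end with one (37175 bases).

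Intergenic circRNAs reported in crushed nerve had shorter spans than those reported in sham nerve. The median over the members reported in a library was 8819 and 9248 bases in the crush libraries and 18396 and 18046 bases in the sham libraries. The mean of the medians was 9033.5 ± 303 bases after crush and 18221 ± 247 bases after sham (SD, n = 2 each), a ratio of 0.496, and the difference of -9187.5 bases was larger than the spread between replicates. The exact permutation p was 0.333, the smallest that the design allows. This comparison was added after the data were seen.

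Both ends of the length distribution took part. Spans of 50000 bases or more made up 13.7% and 15.3% of the members reported after crush, or 36 and 49 members, and 21.8% and 23.7% after sham, or 54 and 54. Spans under 2000 bases made up 20.6% and 22.4% after crush, or 54 and 72 members, and 14.1% and 14.9% after sham, or 35 and 34. The crush and sham libraries overlapped in neither share. Of exonic circRNAs, 4.41% and 4.38% after crush had 50000 bases or more, against 7.40% and 6.58% after sham. For this share the ratio of the crush to the sham mean was 0.628 for exonic, 0.638 for intergenic and 0.704 for intronic circRNAs. For spans under 2000 bases it was 1.28 for exonic, 1.48 for intergenic and 1.81 for intronic circRNAs. Of the 732 members, the 350 reported only after crush had a median span of 9066 bases, the 251 reported only after sham 25298 bases, and the 131 reported in both groups 10312 bases. Of 3731 exonic circRNAs, 1559 were reported only after crush, with a median of 7439 bases, and 1389 only after sham, with 10941 bases. Of 479 intronic ones, 261 and 176 were so reported, with medians of 4545 and 8670.5 bases. Among the members with the most regular pattern, the 39 listed in each crush library but in no sham library had a median of 5110 bases and the 25 in both sham libraries and no crush library 34408 bases. Exonic circRNAs with these patterns numbered 163 and 146, with medians of 5886 and 12312 bases.

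The direction was the same in each way of counting that was run. The median difference was -8866.5 bases with libraries thinned to 1 depth and -7044 bases for members with at least 5 reads. It was -6194.5 bases for members seen in at least 2 libraries and -7374 bases for those that touched no host circRNA. Weighted by reads, the median span was 8507 and 8455 bases after crush and 18156 and 20671 bases after sham, and without circRNA.317 the weighted difference was -7801 bases.

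In median span, exonic circRNAs differed the same way by less. Their medians were 7555 and 8250 bases after crush and 10362 and 9282 bases after sham (ratio 0.805), and intronic circRNAs had 5212 and 4430.5 bases after crush and 9347 and 7083 bases after sham (ratio 0.587). The intergenic median divided by the exonic median was 1.17 and 1.12 in the crush libraries, against 1.78 and 1.94 in the sham libraries, without overlap (exact permutation p = 0.333). Number of members reported, share of members with 2 reads, leukocyte circRNA reads and span all moved with the group, and their part in the span difference was not tested.

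**Figure D1:**
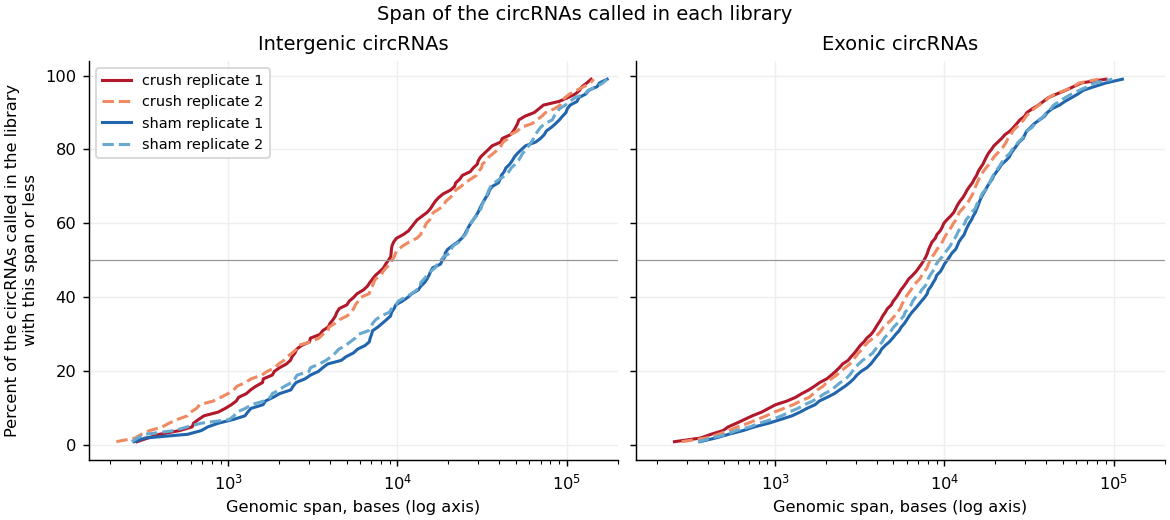
Cumulative distribution of genomic span (x axis, bases, log scale) over the circRNAs reported in each of the 4 libraries (y axis, percent of those circRNAs with that span or less), for intergenic circRNAs on the left and exonic ones on the right; the grey line marks 50 percent. The crush libraries cross it at 8819 and 9248 bases and the sham libraries at 18396 and 18046 bases for intergenic circRNAs, and closer together for exonic ones.

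Which single intergenic circRNAs changed after crush was tested with edgeR's quasi-likelihood test on junction counts, fitted over all 428 circRNAs of any class with at least 5 reads in at least 2 libraries. Of the 732 members 80 passed that minimum, and the others were not tested. Of the 80, 16 passed an adjusted p of 0.05 (beside 11.9% of all circRNAs tested), 11 higher after crush (13.8%, against 7.48%) and 5 lower (6.25%, against 4.44%). At an unadjusted p under 0.05 there were 27 of 80, against 27.8% of all. The adjusted p-values of the 16 lay between 0.0454 and 0.0490, close below the threshold. In 17 of the 80 both crush libraries lay above both sham libraries (21.2%, against 25.5% of all), and in 28 both sham libraries lay above (35.0%, against 29.2%). The median log2 change was -0.17 over the 80 and 0.03 over all 428. The calls depended on the setting. None of the 16 passed with TMM factors from exonic circRNAs (adjusted p from 0.0577 to 0.0602, edgeR) or with a minimum of 2 reads (adjusted p = 0.135, edgeR). DESeq2 called 6 of them and gave the others no adjusted p. Leaving out a library changed which members met the minimum. Of the 16, only 6 could be tested without either crush library and 12 without either sham library. Calls are therefore not counted for these fits, which leave 1 library in a group.

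Of the 16, 14 were listed at 0 throughout 1 group, 10 in both sham libraries and 4 in both crush libraries. For these the fold of the SRPBM means was bounded from below by setting every library at 0 to 3 reads. In 10 of the 16 no library had 10 reads or more. The rule on 5 reads in 2 libraries admits such members only through the group in which they are present.

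**Figure D2:**
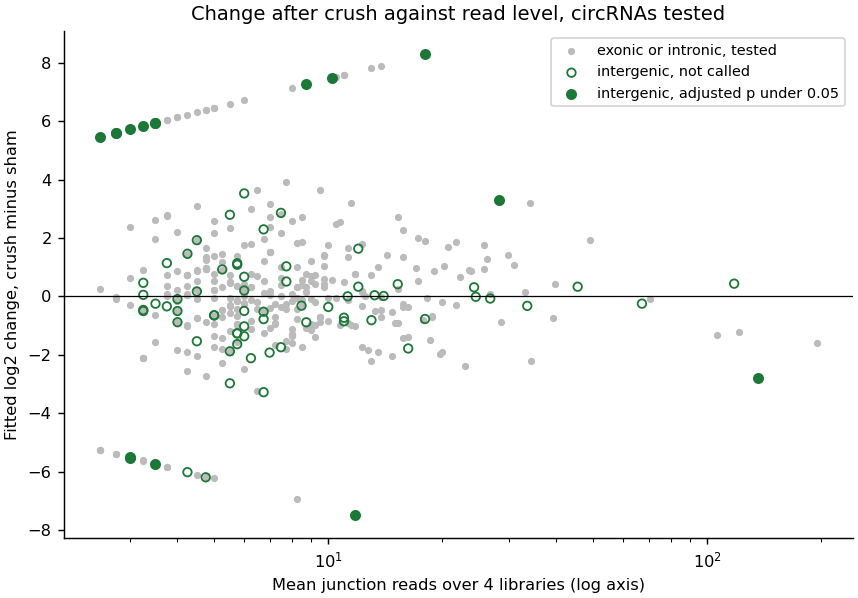
Mean junction reads over the 4 libraries (x axis, log scale) against the fitted log2 change, crush minus sham (y axis), of the 428 circRNAs tested. Grey points are exonic or intronic, open green circles intergenic and not called, filled green circles the 16 intergenic ones past an adjusted p of 0.05 (edgeR); the bands above 5 and below -5 hold circRNAs listed at 0 in 1 group, whose fitted values depend on the prior count and are no folds.

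Among those higher after crush, circRNA.2045 on chromosome 1 had the largest bound. It lies at chr1:221185801-221186464 on the minus strand, 663 bases long, and had 35 and 37 reads in the crush libraries, against 0 and 0 in the sham libraries, at least 10.5-fold higher (adjusted p = 0.0454, edgeR). The groups did not overlap and the crush replicates lay close together. The nearest circRNA of a gene belongs to Ehbp1l1, which acts in vesicle transport, and is 118242 bases away. On the other side it belongs to Sf1, a splicing factor that binds the intron branch point, and is 550958 bases away. A neighbour with the same upstream end, circRNA.2044 (chr1:221184324-221186464), had 7 and 6 reads in crushed nerve, against 0 and 0 in sham nerve, at least 1.91-fold higher (adjusted p = 0.0474, edgeR).

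The member higher after crush with the most reads, circRNA.3324, was present in all 4 libraries. It lies at chr4:168514863-168517342 on the minus strand and had 64 and 37 reads in crushed nerve and 8 and 4 in sham nerve. It averaged 3.43 ± 1.72 SRPBM in crushed nerve and 0.449 ± 0.190 SRPBM in sham nerve (SD, n = 2 each), with a log2 change of 3.28 ± 0.56 (SE; adjusted p = 0.0454, edgeR). Both crush libraries were above both sham libraries, and crush replicate 1 was well above replicate 2. It ends 15514 bases from the nearest circRNA of Dusp16, a phosphatase that acts on MAP kinases, and the RefSeq gene order of GRCr8 places Crebl2, Gpr19, Cdkn1b, Apold1, Ddx47 and Gprc5a between that gene and the next host, Gprc5d.

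Of the remaining 8 higher after crush, 2 more had over 10 reads in both crush libraries. At chr1:63736954-63760774, circRNA.2278 had 22 and 19 reads in the crush libraries, against 0 and 0 in the sham libraries, at least 6.01-fold higher (adjusted p = 0.0454, edgeR). It overlaps circRNAs of Lilrb3l, a leukocyte immunoglobulin-like receptor gene, which had 0 and 11 reads in crushed nerve, against 0 and 0 in sham nerve, and members of that family are similar enough to leave the origin of the reads uncertain. The bound of 6.01-fold holds for circRNA.2278 alone, which shares an end with circRNA.2277. Summed as a group, these back-splices were not absent from sham nerve, where replicate 1 held 7 reads and replicate 2 held 0. The crush replicates of the group held 22 and 19, and it did not pass (adjusted p = 0.184, edgeR). At chr10:91244105-91244498, circRNA.305 spans only 393 bases and had 21 and 14 reads in the crush libraries, against 0 and 0 in the sham libraries, at least 5.19-fold higher (adjusted p = 0.0454, edgeR). It lies 23945 bases from the nearest circRNA of Fmnl1, a formin of blood cells that builds actin filaments. Leukocyte circRNAs were at 0 in sham nerve too, and their part in these results was not tested.

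The other 6 had 5 to 8 reads in each crush library and 0 in both sham libraries, with bounds of at least 1.46-fold to at least 2.07-fold and adjusted p-values from 0.0454 to 0.0490 (edgeR). On chromosome X, circRNA.4976 (5 and 5 reads after crush, 0 and 0 after sham) and circRNA.4978 (6 and 5 after crush, 0 and 0 after sham) share the coordinate 119208336 as their downstream end. They lie 95890 bases from the nearest circRNA of Pls3, an actin-bundling protein. On chromosome 16, circRNA.1154 spans 476 bases at chr16:19805426-19805902 and had 5 and 6 reads in crushed nerve, against 0 and 0 in sham nerve. It lies 69765 bases from the nearest circRNA of Myo9b, an unconventional myosin. On chromosome 19, circRNA.1679 at chr19:19298785-19315507 had 7 and 5 reads in crushed nerve, against 0 and 0 in sham nerve. It lies 57659 bases from the nearest circRNA of Nod2, an intracellular sensor of bacterial peptidoglycan. The nearest circRNA of the actin-associated gene Svil is 83427 bases from circRNA.1380, at chr17:55367271-55374136. For circRNA.2854, at chr2:86867542-86965474, the nearest circRNA of a gene is 1060648 bases away, in Sema5a. Both circRNA.1380 and circRNA.2854 had 8 and 6 reads in crushed nerve, against 0 and 0 in sham nerve. At these counts the bounds lie near the floor.

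Among those lower after crush, circRNA.317 was the most abundant intergenic circRNA of sham nerve. It lies at chr10:94083626-94187819 on the plus strand and spans 104193 bases. It had 21 and 40 reads in the crush libraries, against 206 and 277 in the sham libraries, 1.96 ± 0.615 SRPBM after crush and 18.4 ± 4.79 SRPBM after sham (SD, n = 2 each), with a log2 change of -2.78 ± 0.47 (SE; adjusted p = 0.0454, edgeR). Every crush library was below every sham library. It took 12.8% and 16.8% of all intergenic reads in the sham libraries. The nearest circRNA of a gene, 104874 bases away, belongs to Map3k3, a kinase at the head of MAP kinase cascades. The GRCr8 gene order lists Mrc2, Marchf10, Tanc2, Cyb561, Ace, Ace3, Kcnh6, Dcaf7 and Taco1 between it and Tlk2, the next host on the other side.

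The other 4 lower after crush were listed at 0 in both crush libraries. At chr10:53632921-53787097, circRNA.147 had 0 and 0 reads in crushed nerve, against 17 and 30 in sham nerve, at least 9.07-fold lower (adjusted p = 0.0454, edgeR). It overlaps a circRNA of Myh1, a fast skeletal muscle myosin that sits in a cluster of similar myosin genes, so its origin is uncertain. The circRNAs of Myh1 had 0 and 0 reads in crushed nerve, against 3 and 5 in sham nerve, and skeletal muscle markers as a list 0 and 2 in crushed nerve, against 3 and 7 in sham nerve. The part of muscle in this result was not tested.

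On chromosome X, circRNA.5006 (chrX:137706330-137733342) and circRNA.5011 (chrX:137709443-137733342) have the same upstream end. The first had 0 and 0 reads in crushed nerve, against 7 and 5 in sham nerve, and the second 0 and 0 in crushed nerve, against 8 and 6 in sham nerve, at least 2.28-fold and at least 2.66-fold lower (adjusted p = 0.0454 and 0.0490, edgeR). They lie 659454 bases from the nearest circRNA of Mbnl3, a splicing regulator, and touch the only circRNA of the unnamed gene AABR07041724.2. On chromosome 2, circRNA.2836 (chr2:5636554-5804058) had 0 and 0 reads in crushed nerve, against 5 and 7 in sham nerve, at least 2.30-fold lower (adjusted p = 0.0474, edgeR). It lies 60005 bases from the nearest circRNA of Nr2f1, an orphan nuclear receptor.

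**Figure D3:**
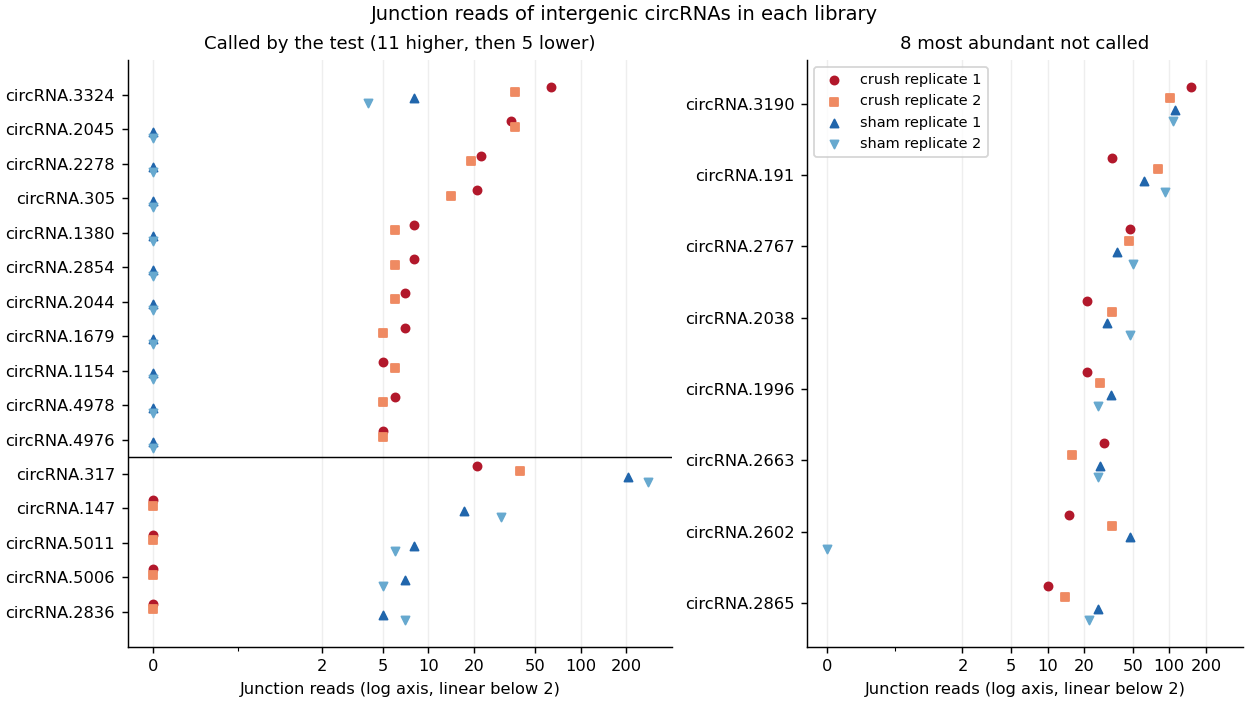
Junction reads (x axis, log scale that is linear below 2) of intergenic circRNAs, 1 symbol for each of the 2 crush and 2 sham libraries. The left panel holds the 16 past an adjusted p of 0.05 (edgeR), the 11 higher after crush above the line and the 5 lower below it, and the right panel the 8 most abundant that did not pass; 14 of the 16 are at 0 in both libraries of 1 group.

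The spans of the called members are given as a description, with no test. Of the 16, 14 were listed at 0 in both libraries of 1 group and passed the read minimum through the other group alone. The calls are not independent, since circRNA.2044 and circRNA.2045, circRNA.4976 and circRNA.4978, and circRNA.5006 and circRNA.5011 are pairs with a common end. The 11 higher after crush had a median span of 2479 bases and the 5 lower after crush 104193 bases, against 9808 bases over the 80 tested. Under 3000 bases were 6 of the 11, of 19 tested, and none of the 5. At 100000 bases or more were none of the 11 and 3 of the 5, of 7 tested. All 5 that were lower spanned more than 20000 bases. Exonic circRNAs had a median span of 3134 bases for the 18 higher and 10566 bases for the 14 lower after crush, against 8119 bases over the 329 tested. The 60 tested members without a touch to a host circRNA held 10 of the 11 that rose and 2 of the 5 that fell, the 10 that overlapped one held 1 and 2, and the 10 that shared an end held 0 and 1.

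Circular RNAs that share an end were also summed to groups, so that low counts of related back-splices add up. Groups of any class joined by a common start or end on the same strand numbered 3563, of which 495 were wholly intergenic, 80 of these with more than 1 circRNA. A further 55 joined 103 intergenic circRNAs to circRNAs of a gene. Of 452 groups tested with edgeR, 8.63% passed an adjusted p of 0.05 (5.53% higher after crush, 3.1% lower). Of the 64 wholly intergenic groups 3 were higher and 2 lower after crush, and 15 had an unadjusted p under 0.05 (edgeR). At that unadjusted p there were 90 of the 360 groups without an intergenic circRNA and 10 of the 28 mixed groups. With TMM factors from exonic circRNAs, 0 of these 5 passed. Groups that passed with a library left out are not counted, since such a fit leaves 1 library in a group. Of the 28 mixed ones 1 was higher and 2 lower.

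The group of circRNA.2045 held the most circRNAs of the 5. It joins 5 intergenic circRNAs of 488 to 2522 bases within chr1:221184324-221188323, and summed to 45 and 51 reads in the crush libraries, against 0 and 0 in the sham libraries, at least 13.9-fold higher (adjusted p = 0.0434, edgeR). All 5 back-splices were unlisted in sham nerve. The other 4 groups to pass each held 1 circRNA, circRNA.305 and circRNA.1154 higher and circRNA.317 and circRNA.147 lower after crush, with adjusted p from 0.0434 to 0.0441 (edgeR).

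Of the mixed groups, that of circRNA.3324 and Dusp16 was higher after crush. It joins 5 intergenic circRNAs to 1 exonic circRNA of Dusp16 within chr4:168480425-168517342 and summed to 76 and 61 reads in crushed nerve, against 11 and 6 in sham nerve. Its level was 4.58 ± 1.32 SRPBM after crush and 0.637 ± 0.233 SRPBM after sham (SD, n = 2 each), with a log2 change of 3.16 ± 0.44 (SE; adjusted p = 0.0434, edgeR). The groups did not overlap. All 5 intergenic circRNAs have the upstream coordinate 168517342, and 1 of them, circRNA.3322, shares its downstream end with the Dusp16 circRNA. The second, circRNA.3323, had 5 and 17 reads in crushed nerve, against 3 and 2 in sham nerve.

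The group of Tshz2, a zinc finger homeobox gene, was lower after crush. Its exonic circRNA.3046 had 5 and 9 reads in crushed nerve, against 36 and 29 in sham nerve. The intergenic circRNA.3047 (chr3:166743545-166746605) shares its upstream end and ends further downstream. It had 2 and 0 reads in crushed nerve, against 13 and 12 in sham nerve, and did not pass on its own (adjusted p = 0.124, edgeR). The third, circRNA.3048, had 0 and 0 reads in crushed nerve, against 2 and 5 in sham nerve. Together they summed to 7 and 9 reads in crushed nerve, against 51 and 46 in sham nerve, a log2 change of -2.43 ± 0.40 (SE; adjusted p = 0.0434, edgeR). All 3 back-splices were lower in both crush libraries than in both sham libraries. The third mixed group to pass was that of Mlip, a lamin-interacting gene of muscle, with 80 and 86 reads in crushed nerve, against 213 and 230 in sham nerve (log2 change -1.26 ± 0.22, SE; adjusted p = 0.0434, edgeR). There the 3 intergenic circRNAs gave few of the reads and exonic circRNA.4660 gave 66 and 64 in crushed nerve, against 177 and 179 in sham nerve.

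Several groups whose libraries did not overlap between crush and sham missed the threshold. The group of circRNA.1679 had 7 and 7 reads in crushed nerve, against 0 and 0 in sham nerve (adjusted p = 0.0522, edgeR). That of circRNA.1380 had 8 and 8, against 0 and 0 (adjusted p = 0.0524, edgeR). That of circRNA.2854 had 8 and 6, against 0 and 0 (adjusted p = 0.0522, edgeR). These circRNAs had passed singly. That of circRNA.2358 had 0 and 2 reads in crushed nerve, against 11 and 11 in sham nerve (adjusted p = 0.167, edgeR). The 3 circRNAs at chr2:45654690-45658863, among them circRNA.2800, share their downstream end and summed to 11 and 13 reads in crushed nerve, against 0 and 0 in sham nerve (adjusted p = 0.0543, edgeR). The group of circRNA.2835, near Nr2f1, had 4 and 9 reads in crushed nerve, against 32 and 42 in sham nerve (log2 change -2.34 ± 0.54, SE; adjusted p = 0.0523, edgeR). It passed with SRPBM library totals (adjusted p = 0.0407, edgeR) and with a minimum of 10 reads (adjusted p = 0.0268, edgeR). It did not pass with TMM factors from exonic circRNAs, with a minimum of 2 reads or with the replicate number as a block. In it, circRNA.2835 itself had 4 and 9 reads in crushed nerve, against 21 and 31 in sham nerve, and its partners circRNA.2834 and circRNA.2836 were listed only in the sham libraries. The group of circRNA.5011 on chromosome X had 0 and 0 reads in crushed nerve, against 24 and 11 in sham nerve (adjusted p = 0.0524, edgeR).

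The 4 circRNAs that share the coordinate 119208336 on chromosome X differed among themselves. The shortest, circRNA.4975 with 282 bases, had 9 and 6 reads in crushed nerve, against 2 and 6 in sham nerve, and crush replicate 2 equalled sham replicate 2. The longer circRNA.4976, circRNA.4977 and circRNA.4978, of 2378 to 15237 bases, were listed in both crush libraries and in no sham library. The group summed to 26 and 18 reads in crushed nerve, against 2 and 6 in sham nerve (log2 change 2.58 ± 0.68, SE; adjusted p = 0.0708, edgeR).

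**Figure D4:**
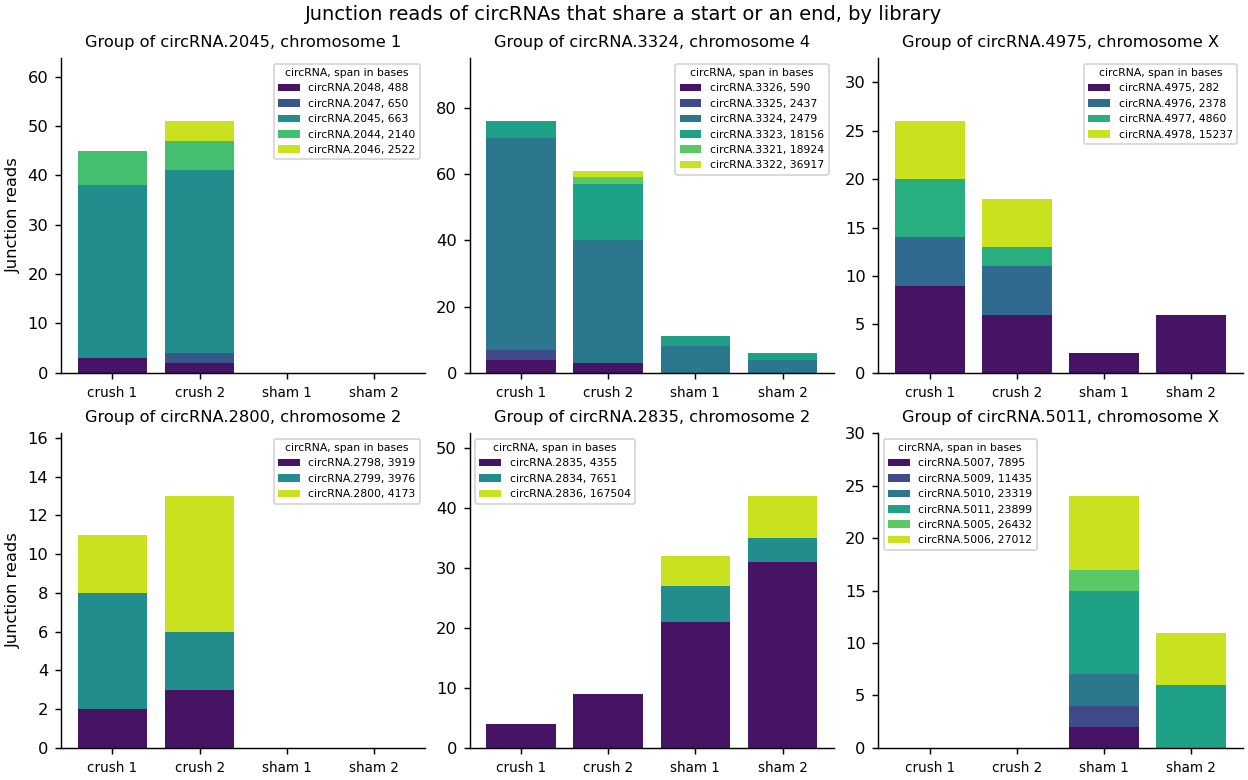
Junction reads (y axis, own scale in each panel) in the 2 crush and 2 sham libraries (x axis) of 6 groups of circRNAs that share a start or an end; colours stack the circRNAs of a group, listed with their span in bases. The group of circRNA.2045 stands at 45 and 51 reads after crush and at 0 and 0 after sham, and that of circRNA.2835 at 4 and 9 after crush and at 32 and 42 after sham.

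Of the 9 intergenic circRNAs with the most reads, circRNA.317 and circRNA.3324 passed the test, and the others did not. At chr3:81127393-81143240, circRNA.3190 had 151 and 102 reads in the crush libraries, against 111 and 107 in the sham libraries, or 8.52 ± 3.43 SRPBM after crush and 8.25 ± 0.232 SRPBM after sham (SD, n = 2 each), a log2 change of 0.43 ± 0.35 (SE; adjusted p = 0.508, edgeR). The crush libraries lay on both sides of the sham libraries. It shares its downstream end with an exonic circRNA of Phf21a, a reader of unmethylated histone tails, and reaches further upstream. That exonic circRNA had 2 and 0 reads in crushed nerve, against 0 and 5 in sham nerve, so nearly all reads that end there belong to back-splices classed as intergenic.

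A similar imbalance held at Zranb1, a deubiquitinase gene. There circRNA.1996 (chr1:204959173-204961691) had 21 and 27 reads in crushed nerve, against 33 and 26 in sham nerve (adjusted p = 0.941, edgeR), and the exonic circRNA.1998, which has the same downstream end, had 2 and 8 reads in crushed nerve, against 0 and 0 in sham nerve. At Tmem56, circRNA.2661 had 12 and 14 reads in crushed nerve, against 16 and 14 in sham nerve (adjusted p = 0.989, edgeR), and the only exonic circRNA 0 and 0 in crushed nerve, against 0 and 2 in sham nerve. Of the other shared-end members named by the rule, circRNA.3189 at Phf21a had 7 and 3 reads in crushed nerve, against 10 and 7 in sham nerve, and circRNA.2703 at Nfkb1, a subunit of the transcription factor NF-kappa B, had 0 and 6 in crushed nerve, against 7 and 10 in sham nerve. Neither passed (adjusted p = 0.743 and 0.610, edgeR).

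Further abundant members did not pass either. On chromosome 10, circRNA.191 (chr10:62623758-62664462) had 34 and 80 reads in crushed nerve, against 62 and 93 in sham nerve (adjusted p = 0.849, edgeR), with replicates of a group further apart than the group means. On chromosome 2, circRNA.2767 (chr2:33950934-33955969) had 48 and 47 reads in crushed nerve, against 37 and 50 in sham nerve (adjusted p = 0.668, edgeR). It lies 34837 bases from the nearest circRNA of Erbb2ip, which binds the receptor ErbB2. On chromosome 1, circRNA.2038 (chr1:220047471-220049075) had 21 and 34 reads in crushed nerve, against 31 and 48 in sham nerve (adjusted p = 0.765, edgeR). On chromosome 2, circRNA.2663 (chr2:224802843-224803455) had 29 and 16 reads in crushed nerve, against 27 and 26 in sham nerve (adjusted p = 0.989, edgeR), and circRNA.2865 (chr2:93488471-93495152) had 10 and 14 in crushed nerve, against 26 and 22 in sham nerve (adjusted p = 0.339, edgeR). The crush libraries lay below both sham libraries in the last of these and overlapped them in the others. Of the 45 members seen in all 4 libraries, 37 were tested and 1 was higher and 1 lower after crush, circRNA.3324 and circRNA.317. Of the 249 circRNAs of any class tested and seen in all 4 libraries 2.81% passed, and the median log2 change of the 37 was -0.32.

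Some counts depended on a single library. Among members with at least 20 reads in a library, the other replicate was listed at 0 in 4 of 29 cases, against 7 of 85 for exonic and 7 of 11 for intronic circRNAs. At chr2:197722898-197836197, circRNA.2602 had 15 and 34 reads in crushed nerve, against 48 and 0 in sham nerve, and at chr8:28018432-28026404, circRNA.4481 had 15 and 17 in crushed nerve, against 29 and 0 in sham nerve. On chromosome 1, circRNA.2201 had 21 and 0 reads in crushed nerve, against 0 and 0 in sham nerve, and on chromosome 10, circRNA.312 had 0 and 21 in crushed nerve, against 4 and 4 in sham nerve. Without sham replicate 1 the only sham count of circRNA.2602 was 0 and it was called higher after crush, and without sham replicate 2 its log2 change was -0.82. In each of these circRNAs a listed 0 stood beside over 20 reads in the replicate of the same group, and the bounds given above rest on listed zeros.

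Of the other large groups of intergenic circRNAs, those of circRNA.2812, circRNA.2038 and circRNA.2201 did not pass. The 7 circRNAs of the group of circRNA.2812, within chr2:4959570-5111207, summed to 12 and 9 reads in crushed nerve, against 16 and 12 in sham nerve (adjusted p = 0.820, edgeR). The 6 of the group of circRNA.2038, within chr1:220032746-220049075, summed to 32 and 40 reads in crushed nerve, against 33 and 62 in sham nerve (adjusted p = 0.778, edgeR). In the group of circRNA.2201 all 5 have the upstream coordinate 276141673, with spans of 129818 to 149236 bases. There circRNA.2201 was listed in crush replicate 1 only, and circRNA.2202 in the sham libraries only, with 7 and 10 reads. The group summed to 25 and 4 reads in crushed nerve, against 9 and 14 in sham nerve (adjusted p = 0.778, edgeR) and overlapped between crush and sham. The shortest member seen in at least 2 libraries was circRNA.663, with 266 bases and 0 and 2 reads in crushed nerve, against 0 and 3 in sham nerve. The longest was circRNA.897, with 178466 bases and 0 and 0 reads in crushed nerve, against 2 and 2 in sham nerve.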

How the data were processed

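Total RNA of sciatic nerve was sequenced as paired-end libraries made with the VAHTS total RNA kit, per the labels' protocols. Per the submitters' processing notes, the build was Rnor_6.0 and the tools included BWA, edgeR and CASAVA 1.8, with no roles stated, and no circRNA caller is named. The files give each circRNA a raw junction read count and an SRPBM value, per the file headers. That signal, as deposited, equalled the count times 1 constant per library. Coordinates, span and class are those of the files, with neither the base convention nor the rule behind the class stated. No sequence of a junction is shown, because no genome of that build was used here.

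Junction counts of all 4 libraries were tested with edgeR 4.0.16 (quasi-likelihood, TMM, group as the only term, two-sided, R 4.3.3) on circRNAs, and on groups that share an end, with at least 5 reads in at least 2 libraries. P-values were adjusted by Benjamini-Hochberg over all 428 circRNAs or 452 groups, at a threshold of 0.05. The members, marker lists, tests and alternatives were chosen with earlier results of these data known. The named circRNAs are those past the test with separated groups, the 10 with the most reads overall and of those in all libraries, the 6 most abundant that share an end with a host circRNA, the 4 largest replicate gaps and the shortest and longest in at least 2 libraries. Named groups are those past the test or with the 4 smallest p per direction, the largest, and some others whose libraries did not overlap between crush and sham. Single values per library were compared by exact permutation (scipy 1.17.1). The tests were run on simulated counts before use.

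Host symbols matched the RefSeq table of GRCr8 for 2175 genes by symbol and 103 by synonym; 49 were kept as given. That table served only for names and gene order. Library totals from the SRPBM constants, used as an alternative scaling, gave the 428 circRNAs a median log2 change of -0.37 in place of 0.03. Same-numbered libraries had a correlation of deviations of -0.11 over 428 circRNAs, so the replicate numbers were not taken as pairs. Alternatives were DESeq2 1.42.0, other scalings, minima and joins, and leaving out each library. Some members of the marker lists are not reported here by name.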

Additional observations from a re-analysis of the deposited data

How the results depend on the processing

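The 80 tested intergenic circRNAs gave 16 calls, and the 64 tested groups 5. With DESeq2 6 circRNAs passed, and the others of the 16 were given no adjusted p. With SRPBM totals 16 circRNAs, all of the 16, passed in edgeR (adjusted p of 0.0207 to 0.0325), and 8 groups. With no filter 11 circRNAs passed, 5 of them among the 16, and 8 groups. A minimum of 10 reads left 7 circRNAs past the threshold. Only 6 of the 16 met that minimum, and all 6 passed in edgeR (adjusted p of 0.0329 to 0.0439). With TMM factors from exonic circRNAs 0 circRNAs and 0 groups passed in edgeR (24 and 16 at an unadjusted p under 0.05), with a minimum of 2 reads 0 and 0 (70 and 41), and with overlapping circRNAs joined 0 groups (15). Leaving out 1 library gave 3 to 20 circRNAs and 0 to 13 groups, but only 6 of the 16 could be tested without a crush library. The samples share only a replicate number: with it as a block 0 circRNAs and 0 groups passed in edgeR (9 and 9 at an unadjusted p under 0.05), and with the crossed pairing, chosen after seeing the data, 0 and 0 (12 and 8). Neither the numbers that passed under an alternative nor the unadjusted counts in brackets are set beside those of all classes. No excess of intergenic circRNAs or groups can be read from them. Among all results for single circRNAs under an alternative 187 kept direction and side, 98 were no longer past the threshold, 3 newly passed and 18 turned; for groups the numbers were 85, 26, 5 and 2.

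The difference in read share, crush minus sham, was -1.75 percentage points over counts of at least 5 reads and 1.18 without circRNA.317. In SRPBM it was -7.28 without circRNA.317. The difference in number reported was 1.0 over counts of at least 5 reads. The span difference was -6194.5 bases in at least 2 libraries, -7373.75 without host overlap, -7044 from 5 reads up, -10932.5 weighted by reads, -7801 so weighted without circRNA.317, -8866.5 thinned, and -1919.5 for exonic circRNAs. Without 1 library it was -9402 to -8973.

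None of the results that turned had passed the test, and the cause was not tested. With SRPBM totals circRNA.2602 had a log2 change of -0.17, circRNA.2661 -0.41 and circRNA.2767 -0.075. With DESeq2 circRNA.1996 had 0.039 and circRNA.2663 0.13. For circRNA.2661 it was -0.023 with a minimum of 2 reads and -0.061 with no filter. Over the omission of each library in turn circRNA.191 had -0.82 to 0.29, circRNA.1996 -0.30 to 0.13, circRNA.2038 -0.75 to 0.024, circRNA.2602 -0.82 to 7.63, circRNA.2661 -0.14 to 0.15, circRNA.2663 -0.47 to 0.51, circRNA.2767 -0.012 to 0.52 and circRNA.3189 -1.22 to 0.10. The group of circRNA.2038 had -0.77 to 0.25 and that of circRNA.2812 -0.47 to 0.14. Depth limits all of this: with 8250 to 9027 junction reads per library most members had under 5 reads, and the design of 2 against 2 cannot give an exact p under 0.333.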
